A study of Homo sapiens with 8 samples.

Results

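The MAP kinase cascades and the protein phosphatases on the array were described in 4 cisplatin-resistant derivatives of A2780, a human ovarian carcinoma cell line. Members were taken by gene name, as rows whose name begins with MAPK, with MAP2K, MAP3K or MAP4K, with DUSP and a digit, with PTPN or PTPR, or with PPP and a digit from 1 to 6, and 1 symbol was left out by the rule. This gave 121 genes, measured by 145 cDNA clones in 148 spots, of 9962 gene symbols, 13340 clones and 14427 clone spots in all. Each of the derivatives CPR20, CPR40, CPR55 and CPR70 was hybridised to 2 spotted two-colour cDNA arrays. On every array the derivative carried Cy5 and the cisplatin-sensitive parental line CPR00 carried Cy3, and the dyes were not exchanged. All lines grew in RPMI1640 medium with 10% fetal calf serum, and total RNA was extracted with Trizol. Whether a derivative's arrays hold RNA of separate cultures is not given in the labels, so p-values measure the spread between arrays, which may be technical. The parental RNA lay in the other channel of each array, so the tests leave out the spread of the parental line, and a dye effect specific to a clone cannot be told apart from a difference between the lines.

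A MAP kinase cascade passes a signal along a chain of kinases. MAP4 kinases act on MAP3 kinases, these phosphorylate MAP2 kinases, and those activate the MAP kinases ERK, JNK and p38, which phosphorylate transcription factors and further kinases. Dual-specificity and tyrosine phosphatases remove the activating phosphates, and the PPP family, with protein phosphatases 1 and 2A and calcineurin, removes phosphate from serine and threonine through catalytic subunits that regulatory subunits direct to their substrates. The arrays measured RNA, which need not follow the activity of kinases regulated by phosphorylation.

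Promoter sequences are shown for MAP3K14, MAP2K3 and PTPN13, the called members whose calls held under every processing alternative. They are RefSeq sequences of 300 bases around an annotated start, on GRCh38.p14, read 5′ to 3′ along the gene's strand. The window of MAP3K14 is chr17:45316971-45317270 on the minus strand, that of MAP2K3 is chr17:21284461-21284760 on the plus strand, and that of PTPN13 is chr4:86594065-86594364 on the plus strand. For MAP2K3 the table holds 2 starts, of which the more upstream is shown. Capitals mark every match, on either strand, to the GC box GGGCGG. They also mark the pentamer CCAAT of the CCAAT box. The AP-1 site TGANTCA and the cyclic AMP response element TGACGTCA were searched in the same way.
MAP3K14: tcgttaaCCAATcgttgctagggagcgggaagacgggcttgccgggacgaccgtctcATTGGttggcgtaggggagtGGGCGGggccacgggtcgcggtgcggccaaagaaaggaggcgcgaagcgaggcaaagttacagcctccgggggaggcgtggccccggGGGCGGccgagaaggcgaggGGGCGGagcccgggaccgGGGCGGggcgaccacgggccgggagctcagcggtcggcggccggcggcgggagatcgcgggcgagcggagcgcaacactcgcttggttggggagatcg
MAP2K3: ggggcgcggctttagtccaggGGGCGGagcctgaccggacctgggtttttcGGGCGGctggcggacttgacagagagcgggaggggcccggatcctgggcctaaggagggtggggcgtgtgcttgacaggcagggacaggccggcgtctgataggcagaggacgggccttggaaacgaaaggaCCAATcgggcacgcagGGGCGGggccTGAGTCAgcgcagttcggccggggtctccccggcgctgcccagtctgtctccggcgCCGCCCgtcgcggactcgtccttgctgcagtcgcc
PTPN13: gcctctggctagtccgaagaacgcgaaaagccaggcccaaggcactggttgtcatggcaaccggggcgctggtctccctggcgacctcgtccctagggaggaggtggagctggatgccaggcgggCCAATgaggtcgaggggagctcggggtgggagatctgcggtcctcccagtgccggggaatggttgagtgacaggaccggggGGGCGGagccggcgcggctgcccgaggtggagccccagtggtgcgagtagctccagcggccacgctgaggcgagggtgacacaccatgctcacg

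The MAP3K14 window held 4 GC boxes and 2 CCAAT boxes. The MAP2K3 window held 4 GC boxes, 1 CCAAT box and 1 AP-1 match. The PTPN13 window held 1 GC box and 1 CCAAT box. No match overlapped another. GC content was 72.7% for MAP3K14, 70.7% for MAP2K3 and 68.7% for PTPN13. Promoters were found for 99 of the 121 member genes, 151 windows in all. GGGCGG occurred in 62.9% of member windows and in 45.0% of all 35116 windows in the table, and CCAAT in 27.8% against 34.6%. TGANTCA occurred in 3.97% of member windows against 7.71% of all, and TGACGTCA in 5.30% against 1.85%. These matches describe letters in a window and were not tested as sites.

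Values are log2 ratios of derivative over parental line, fitted with limma, and each gene is given by its brightest clone unless stated. The threshold for a call was 0.05 after Benjamini-Hochberg adjustment over all 13186 clones tested. A channel is called dim where it did not lie well above the background of empty spots on any array of the comparison. Of the 121 genes 120 were tested, and MAP2K4 lacked a value in at least 1 derivative. In the mean of the 4 derivatives 11 members rose and 4 fell, 15 of 120 or 12.5%. Of all 9841 genes tested 11.7% were called, 6.84% higher and 4.89% lower, so the members' share lay near that of all genes. On all 8 arrays 13 members lay above 0 and 8 below, beside 8.07% and 6.04% of all genes. With the replicate number as a block, 25 members passed, the 15 among them (20.8% against 19.3% of all clones), whereas median centring in place of loess left 7 (5.83% against 5.50%) and the authors' deposited log2 values gave 4 (3.31% against 2.35%). The median log2 ratio of the members was 0.07, against 0.00 for all genes. The kinase classes held 8 called of 42 (19%), and the phosphatase classes 7 of 78 (8.97%). Among genes above background in a channel on at least 4 arrays, 17.1% of members and 21% of all genes were called. Both channels were dim for 20 members, the parental channel alone for 22 and the derivative channel alone for 1, and both channels were above background on some array for 77.

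Leaving out any 1 of the 8 arrays did not end the calls of MAP3K14, MAP2K3, PTPN13, PPP2R5A, MAP3K11, MAP3K2, PPP2R2C or PTPN3. The call of MAPK8IP3 ended without CPR20 replicate 2. That of PTPRJ ended without CPR20, CPR40 or CPR70 replicate 2, and that of MAP4K3 without CPR20 or CPR40 replicate 2 or without CPR55 or CPR70 replicate 1. LAMTOR3 was lost without either CPR20 array or without CPR40, CPR55 or CPR70 replicate 1, and MAP3K8 without either CPR20 array or without CPR40, CPR55 or CPR70 replicate 2. PPP2R5E was lost without any 1 of 6 arrays, all but CPR40 replicate 2 and CPR70 replicate 1, and PTPRA without any 1 of 7, all but CPR20 replicate 1. The highest limma adjusted p of these members in such fits was 0.139, for PTPRA. Median centring ended the calls of LAMTOR3, MAP3K11, MAP4K3, MAPK8IP3, PPP2R2C, PPP2R5E, PTPRA and PTPRJ.

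**Figure D1:**
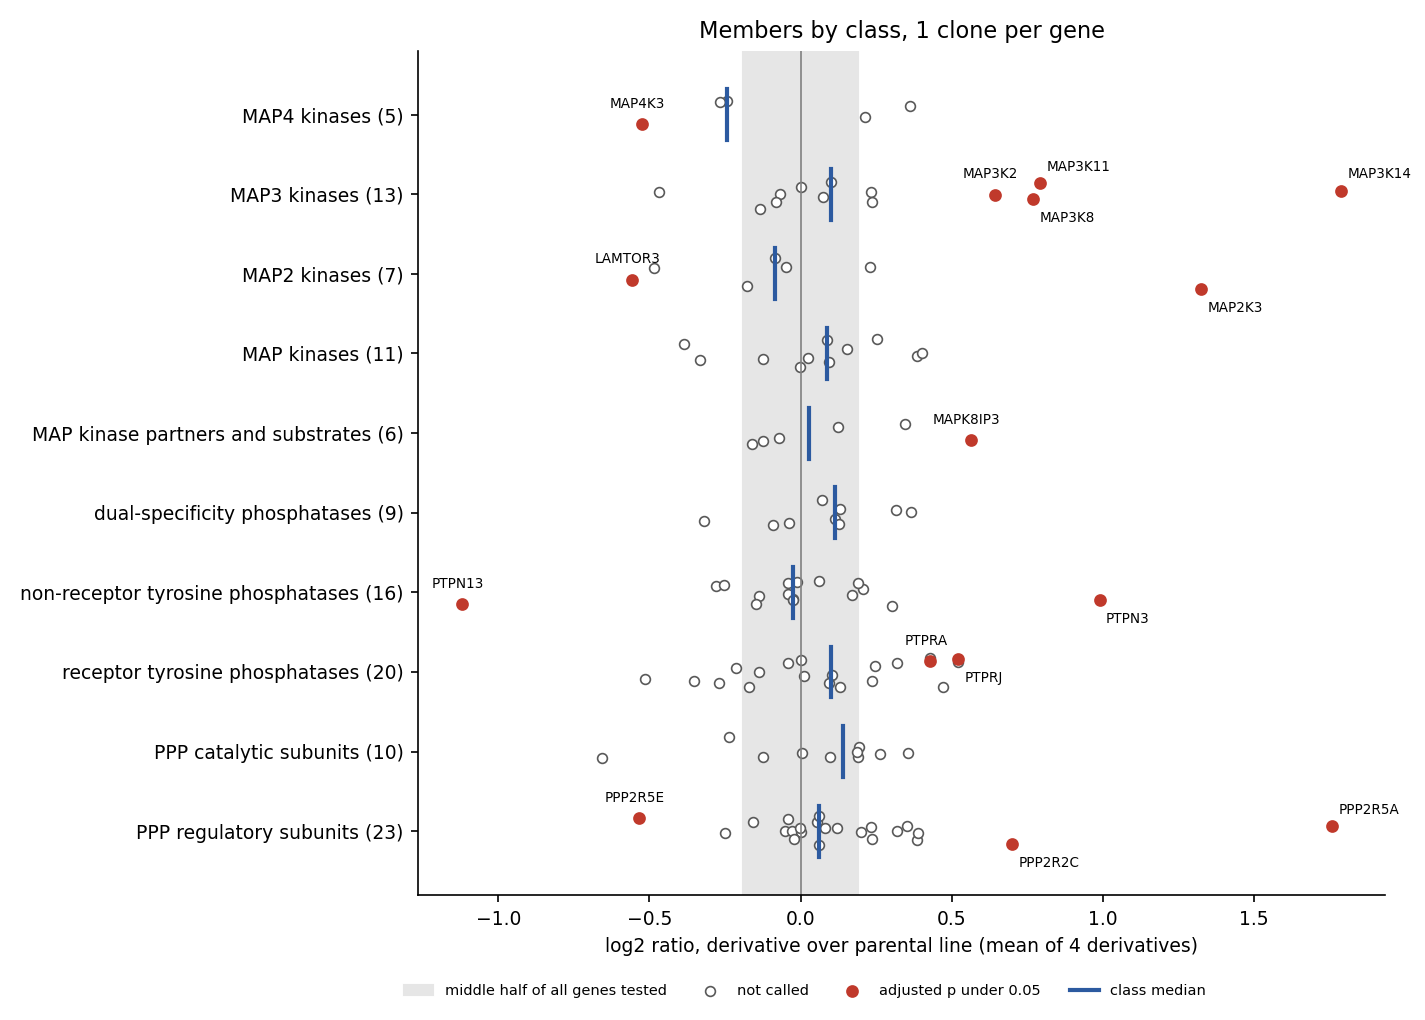
Mean log2 ratio over the 4 derivatives (x axis) for the 120 tested members, by class (number of genes in brackets). Red points passed an adjusted p of 0.05, open points did not, blue bars are class medians and the grey band spans the 25th to the 75th percentile of all genes tested. MAP3K14 at 1.79 and PPP2R5A at 1.76 lie farthest to the right and PTPN13 at -1.12 farthest to the left.

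Among the kinases at the entry of the cascades, 4 of 13 MAP3 kinases rose and none fell, and 1 of 5 MAP4 kinases fell. These are 30.8% and 20% called, beside 11.7% of all genes tested and 21% of those above background in a channel on at least 4 arrays. MAP3K14, the NIK kinase of the noncanonical NF-kappa-B pathway, had log2 ratios of 1.30 and 1.40 in CPR20, 1.82 and 1.54 in CPR40, 1.84 and 1.46 in CPR55, and 2.36 and 2.58 in CPR70. Every array lay above 1, and both CPR70 arrays lay above the other 6. The mean was 1.79 ± 0.10 (SE, n = 8 arrays, limma adjusted p = 0.0001).

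MAP3K14 passed in each derivative alone, at 1.35 ± 0.20 in CPR20 (SE, n = 2 arrays, limma adjusted p = 0.04), 1.68 in CPR40 (limma adjusted p = 0.0165), 1.65 in CPR55 (limma adjusted p = 0.0176) and 2.47 in CPR70 (limma adjusted p = 0.0018). The Cy5 intensity lay between 533 and 2857, above background on all 8 arrays, and the Cy3 intensity between 92.1 and 438, above background on 1 array. The parental channel was dim in CPR40, CPR55 and CPR70. There the bounds on the rise of MAP3K14 were 3.03-fold, 2.42-fold and 4.34-fold. For these the dim channel was raised to the lowest normalised value of any clone above background on the array. The single-derivative calls rest on 2 arrays: of 17 alternatives, MAP3K14 passed in 5 for CPR20, 12 for CPR40, 13 for CPR55 and 15 for CPR70, and without CPR70 replicate 2 no member passed in CPR70.

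MAP3K11, the mixed-lineage kinase MLK3 that feeds JNK, ranged from 0.21 to 1.26 over the arrays, with CPR40 replicate 2 the lowest. Its mean was 0.79 ± 0.14 (SE, n = 8 arrays, limma adjusted p = 0.0120). MAP3K8, known as TPL2, an activator of the ERK branch named after its values were seen, averaged 0.77 ± 0.18 (SE, n = 8 arrays, limma adjusted p = 0.0351). It lay below 0 on CPR55 replicate 1, at -0.24, and between 0.43 and 1.39 on the other 7 arrays. It averaged 0.35 over the 4 replicate 1 arrays and 1.19 over the 4 replicate 2 arrays.

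MAP3K2, the MEKK2 kinase that feeds ERK5 and JNK, was higher on all 8 arrays, from 0.13 to 1.11, with a mean of 0.64 ± 0.10 (SE, limma adjusted p = 0.0067, n = 8). Its parental channel was above background on 1 array. With the replicate block it passed in CPR70 alone, at 0.94 (limma adjusted p = 0.0470, against 0.0805 without it). MAP3K5, the stress-activated kinase ASK1, was dim in both channels on all arrays, so it gave no measured ratio. Among the 5 MAP4 kinases, MAP4K3, a JNK-pathway kinase also placed upstream of mTORC1, fell on all 8 arrays, from -0.84 to -0.25. Its mean was -0.53 ± 0.11 (SE, n = 8 arrays, limma adjusted p = 0.0205), with both channels measured. MAP4K2 was above 0 on 8 of 8 arrays at a mean of 0.36 but did not pass (limma adjusted p = 0.128).

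Of the 7 genes tested in the MAP2 kinase class, 1 rose and 1 fell, 28.6% called beside 11.7% of all genes tested. MAP2K3, the MKK3 kinase that phosphorylates p38, rose, and both its channels lay above background on all 8 arrays. Its log2 ratios were 1.18 and 0.92 in CPR20, 1.64 and 1.33 in CPR40, 1.40 and 1.33 in CPR55, and 1.80 and 1.00 in CPR70. No array lay below 0.92, and the CPR70 arrays spanned those of CPR40 and CPR55. The mean was 1.32 ± 0.12 (SE, n = 8 arrays, limma adjusted p = 0.0007), a 2.51-fold difference.

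MAP2K3 passed in CPR40 at 1.49 and in CPR70 at 1.40 (limma adjusted p = 0.0488 and 0.0369, n = 2 arrays each), and had 1.05 in CPR20 and 1.37 in CPR55, which did not pass. With the replicate block it passed in CPR55 too (limma adjusted p = 0.0297). In CPR40 and in CPR70 the call held in 4 of 17 alternatives, and in none that left out an array. MAP2K6, the other p38 kinase of the class, averaged -0.48 and did not pass (limma adjusted p = 0.137). Its averages were -0.12 over the replicate 1 arrays and -0.85 over the replicate 2 arrays. The values overlapped, with CPR40 replicate 1 at -0.91 and CPR20 replicate 2 at -0.32. With the replicate number as a block, MAP2K6 passed (limma adjusted p = 0.0422). MAP2K1 and MAP2K2, the MEK kinases of the ERK branch, had 0.23 and -0.09 and did not pass (limma adjusted p = 0.292 and 0.702). The parental channel of MAP2K2 was dim on all arrays, and its derivative channel was above background on 2. LAMTOR3, listed under its older name MAP2K1IP1, is not a kinase but a scaffold that binds MEK1 and ERK1 on endosomes. It fell on all 8 arrays, from -1.07 to -0.16, with a mean of -0.56 ± 0.12 (SE, n = 8 arrays, limma adjusted p = 0.0218).

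None of the 11 MAP kinases was called, beside 11.7% of all genes tested. MAPK3, the kinase ERK1, had 0.09 (limma adjusted p = 0.702). MAPK14, the p38-alpha kinase, had 0.15 and MAPK9, a JNK kinase, 0.02 (limma adjusted p = 0.516 and 0.922), and both were above background in at least 1 channel on all 8 arrays. MAPK10, a further JNK kinase, was above 0 on 8 of 8 arrays at a mean of 0.40 and did not pass, but passed with the replicate block (limma adjusted p = 0.0587 without and 0.0313 with it) and in 2 further alternatives. Its parental channel was dim on all arrays, with a bound of 1.14-fold. The other MAPK10 clone, dim in both channels, read -0.165, on the opposite side of 0. MAPK8 was not analysed here. Of the 6 partners and substrates 1 was called, 16.7% beside 11.7% of all genes tested. MAPK8IP3, the JIP3 scaffold of JNK named after its values were seen, rose with a mean of 0.56 ± 0.11 (SE, n = 8 arrays, limma adjusted p = 0.0156), with the parental channel dim on all arrays and no lower bound above 1 on its fold. MAPKAPK2, a kinase that p38 phosphorylates, lay above 0 on all 8 arrays at 0.35 and just missed the threshold (limma adjusted p = 0.0508), and passed with the block (limma adjusted p = 0.0229).

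**Figure D2:**
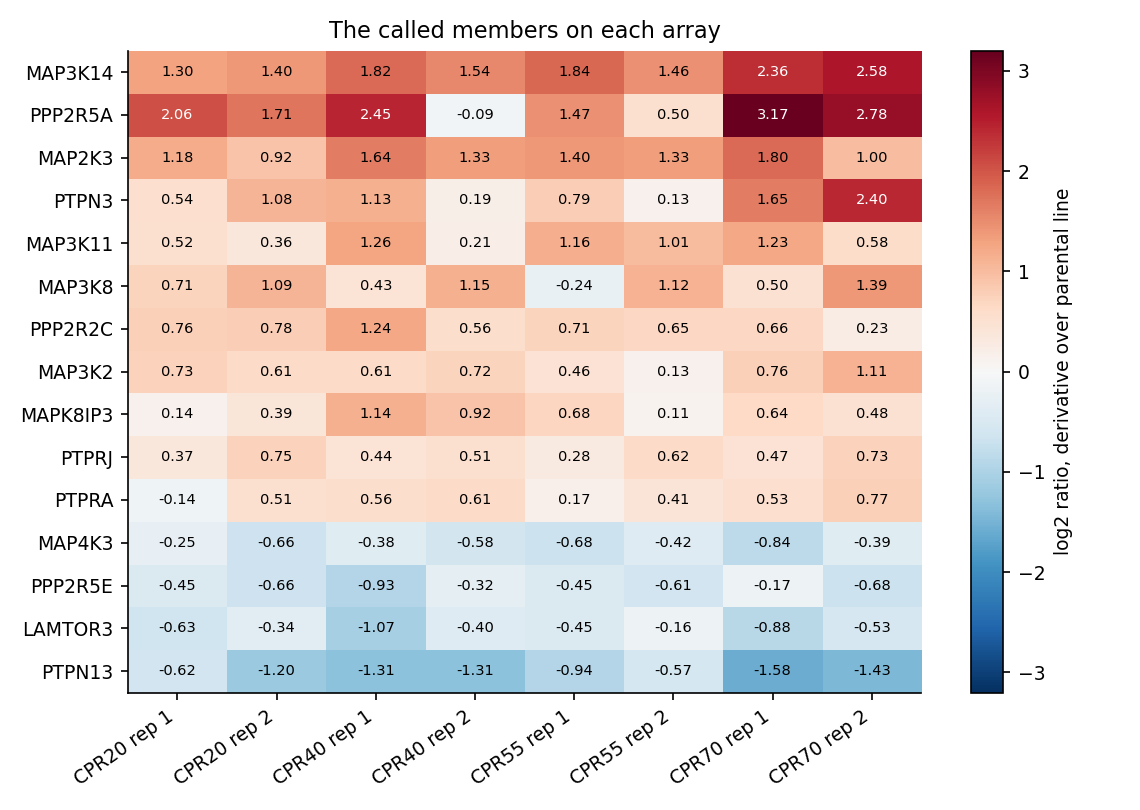
Log2 ratio of derivative over parental line on each of the 8 arrays (columns) for the 15 called members (lines of the heat map, ordered by mean). Red is higher in the derivative and blue lower. Of the 15, 12 lie on one side of 0 on all 8 arrays, and the exceptions are MAP3K8, PPP2R5A and PTPRA with 1 array each.

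No dual-specificity phosphatase was called, 0 of 9 beside 11.7% of all genes tested, with a class median of 0.11. DUSP1, the nuclear phosphatase of p38, JNK and ERK, had 0.11, and DUSP4 0.07 with its parental channel dim (limma adjusted p = 0.522 and 0.725). DUSP5 was dim in both channels on all arrays. DUSP11 and DUSP12, of which the former acts on RNA, had 0.32 and -0.32 and missed the threshold (limma adjusted p = 0.111 and 0.114). DUSP9 ranged from -0.57 to 2.93, with a mean of 0.37 (limma adjusted p = 0.494), and is named after its values were seen. In CPR40, where its highest value lay, the derivative channel was dim and the parental channel was above background on 1 array.

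Of the 16 non-receptor tyrosine phosphatases, 1 fell and 1 rose, 12.5% called beside 11.7% of all genes tested. PTPN13, a large phosphatase with a FERM and several PDZ domains that binds the death receptor FAS, had -0.62 and -1.20 in CPR20, -1.31 and -1.31 in CPR40, -0.94 and -0.57 in CPR55, and -1.58 and -1.43 in CPR70. All 8 arrays lay below 0, and the CPR40 and CPR70 arrays were lower than those of CPR20 and CPR55. The mean was -1.12 ± 0.11 (SE, n = 8 arrays, limma adjusted p = 0.0009). It passed alone in CPR70, at -1.51 (limma adjusted p = 0.0193, n = 2), where both channels were measured, and in CPR40 the derivative channel was dim, so the fall was at least 2.21-fold. With the replicate block it passed in CPR40 too. The other PTPN13 clone, dim in both channels, read -0.44.

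PTPN3, a phosphatase with FERM and PDZ domains, is named after its values were seen, since its signal was above background on 3 arrays in the derivative channel and on none in the parental channel. It read 0.54 and 1.08 in CPR20, 1.13 and 0.19 in CPR40, 0.79 and 0.13 in CPR55, and 1.65 and 2.40 in CPR70. The CPR70 arrays were the highest, and the mean was 0.99 ± 0.16 (SE, n = 8 arrays, limma adjusted p = 0.0073), with no bound above 1 on its fold. In CPR70 it was 2.03 (limma adjusted p = 0.0250, n = 2) and at least 1.62-fold. PTPN1, the insulin-receptor phosphatase PTP1B, had 0.06, and PTPN11, the RAS-activating phosphatase SHP2, -0.03, with a range of -1.29 to 1.23 over the arrays (limma adjusted p = 0.784 and 0.962, n = 8). For PTPN11 the parental channel was dim on all arrays and the derivative channel was above background on 2.

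**Figure D3:**
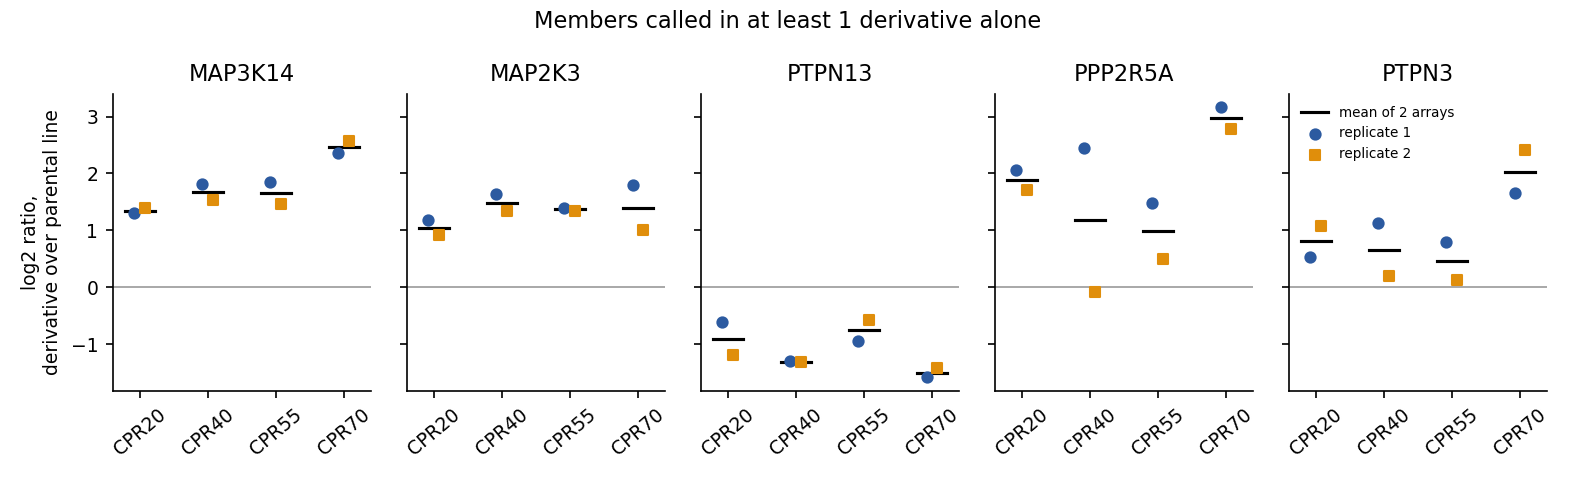
Log2 ratio of derivative over parental line (y axis) in each derivative for the 5 members called in at least 1 derivative alone. Circles are replicate 1, squares replicate 2 and bars their mean. MAP3K14 and MAP2K3 sit above 0 and PTPN13 below 0 on every array, while PPP2R5A in CPR40 spreads from -0.09 to 2.45.

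Among 20 receptor tyrosine phosphatases 2 rose, 10% called beside 11.7% of all genes tested. PTPRJ, the DEP-1 phosphatase, ranged from 0.28 to 0.75 with a mean of 0.52 ± 0.10 (SE, n = 8 arrays, limma adjusted p = 0.0173). Its parental channel was dim and the bound on its fold was 1.00. The other PTPRJ clone read -0.27, on the opposite side of 0. With the mean of all clones of a gene, PTPRJ did not pass. PTPRA, which removes the inhibitory phosphate of SRC, averaged 0.43 ± 0.11 (SE, n = 8 arrays, limma adjusted p = 0.0473), with CPR20 replicate 1 at -0.14. It averaged 0.28 over the replicate 1 arrays and 0.57 over the replicate 2 arrays, and 6 of 19 alternatives passed. PTPRCAP, a CD45-binding protein, and SIRPA, listed as PTPNS1, are members by name and are not themselves phosphatases. They had 0.10 and -0.15 and were not called.

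None of the 10 PPP catalytic subunits was called, beside 11.7% of all genes tested. PPP1CB, a catalytic subunit of protein phosphatase 1, was below 0 on all 8 arrays, from -1.25 to -0.06, at a mean of -0.66 (limma adjusted p = 0.0538). It averaged -1.07 over the replicate 1 arrays and -0.25 over the replicate 2 arrays, and passed with the block (limma adjusted p = 0.0050). PPP1CA, its sister subunit, was above 0 on all 8 arrays at 0.36 (limma adjusted p = 0.0933, and 0.0273 with the block), and its other clone read 0.20. Further members that passed with the block were MAP3K3 (-0.47), PTPRK (0.52), MAPK7 (-0.39), PTPRG (0.43) and PPP2R5C (0.32), named after their values were seen. PTPRK also passed with it in CPR70 alone, at 1.25 (limma adjusted p = 0.0361, against 0.0848 without it). The parental channel of PTPRK was dim on all arrays, and its derivative channel was above background on 2 arrays, 1 of them in CPR70. The bound on its fold in CPR70 lay barely above 1, and the mean had no bound above 1. PPP2CA, the catalytic subunit of protein phosphatase 2A, had 0.19 and PPP3CA, that of calcineurin, 0.26 (limma adjusted p = 0.240 and 0.117). The parental channel of PPP3CA was dim on all arrays, and its derivative channel was above background on 3.

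Of 23 PPP regulatory subunits 2 rose and 1 fell, 13% called beside 11.7% of all genes tested. PPP2R5A, a B56-type subunit of protein phosphatase 2A, read 2.06 and 1.71 in CPR20, 2.45 and -0.09 in CPR40, 1.47 and 0.50 in CPR55, and 3.17 and 2.78 in CPR70. The CPR70 arrays were the highest, and CPR40 replicate 2 stood alone below 0. The mean was 1.76 ± 0.26 (SE, n = 8 arrays, limma adjusted p = 0.0051).

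The parental channel of PPP2R5A was dim on all arrays and the derivative channel was above background on 7, which bounds the rise at 1.66-fold or more. It passed in CPR70 (2.97, limma adjusted p = 0.0399, n = 2). Over the replicate 2 arrays alone it averaged 1.23 and did not pass (limma adjusted p = 0.120, n = 4), while over the replicate 1 arrays it averaged 2.29. PPP2R5E, another B56-type subunit, fell on all 8 arrays, from -0.93 to -0.17, with a mean of -0.54 ± 0.12 (SE, n = 8 arrays, limma adjusted p = 0.0249). PPP2R2C, a B55-type subunit named after its values were seen, had 0.70 ± 0.12 (SE, n = 8 arrays, limma adjusted p = 0.0083), with the parental channel dim and no bound above 1.

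**Figure D4:**
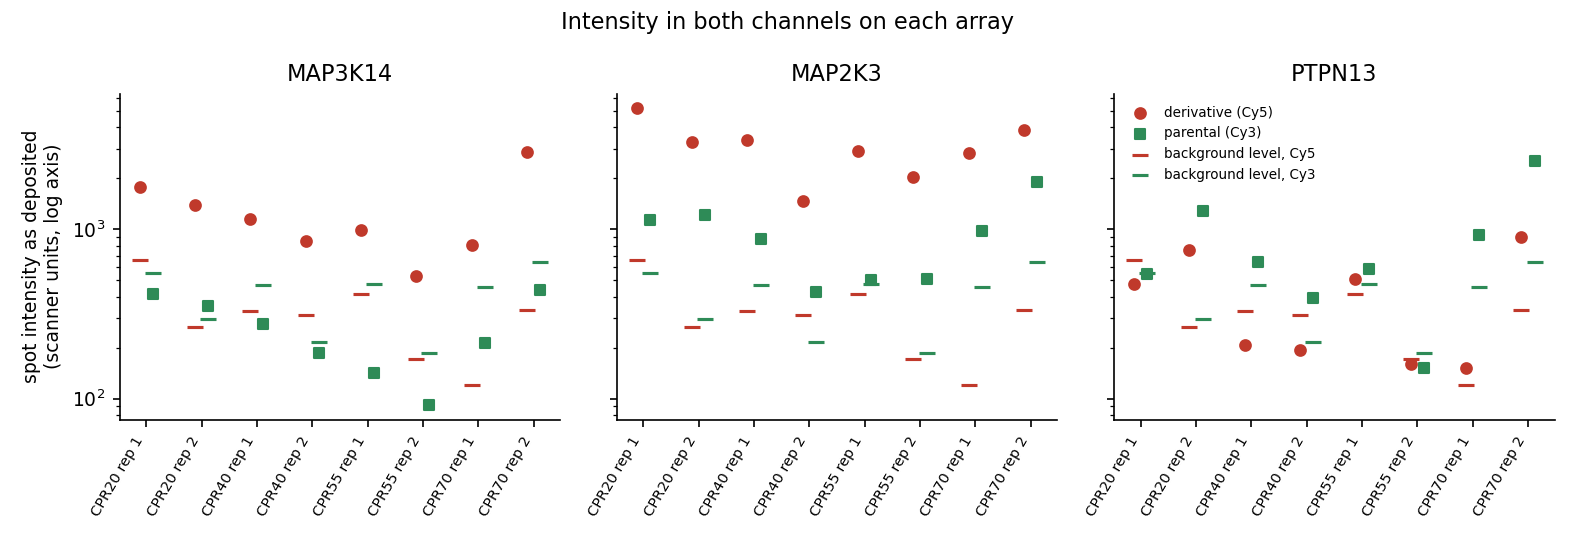
Spot intensity as deposited (y axis, scanner units, log axis) on each array for MAP3K14, MAP2K3 and PTPN13. Circles are the derivative in Cy5, squares the parental line in Cy3, and dashes the background level of each channel. The MAP3K14 derivative signal exceeds its background level on all 8 arrays and its parental signal on 1, whereas both MAP2K3 signals exceed it on all 8.

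In single derivatives, 1 member was called in CPR20, 2 in CPR40, 1 in CPR55 and 5 in CPR70, beside 0.549%, 0.671%, 0.681% and 1.55% of all genes. The derivatives share the parental reference, so their lists are not independent. Without CPR70 replicate 1 only MAP3K14 passed in CPR70, and without replicate 2 none did. The class medians stayed between -0.26 and 0.27 in every derivative. Any difference among the 4 derivatives was called for 0 members and 0 genes (0% of 9841). At an unadjusted limma p under 0.05 there were 4 members (3.33%), which are PTPRT, MAP3K14, PTPN3 and PTPRK, named after their values were seen, against 2.42% of all genes. For CPR70 minus CPR20 the count was 0 of 120, and 2 at an unadjusted limma p under 0.05 (1.67% against 1.82% of all genes). These were MAP3K14, at a difference of 1.12, and PTPN3, at 1.22.

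**Figure D5:**
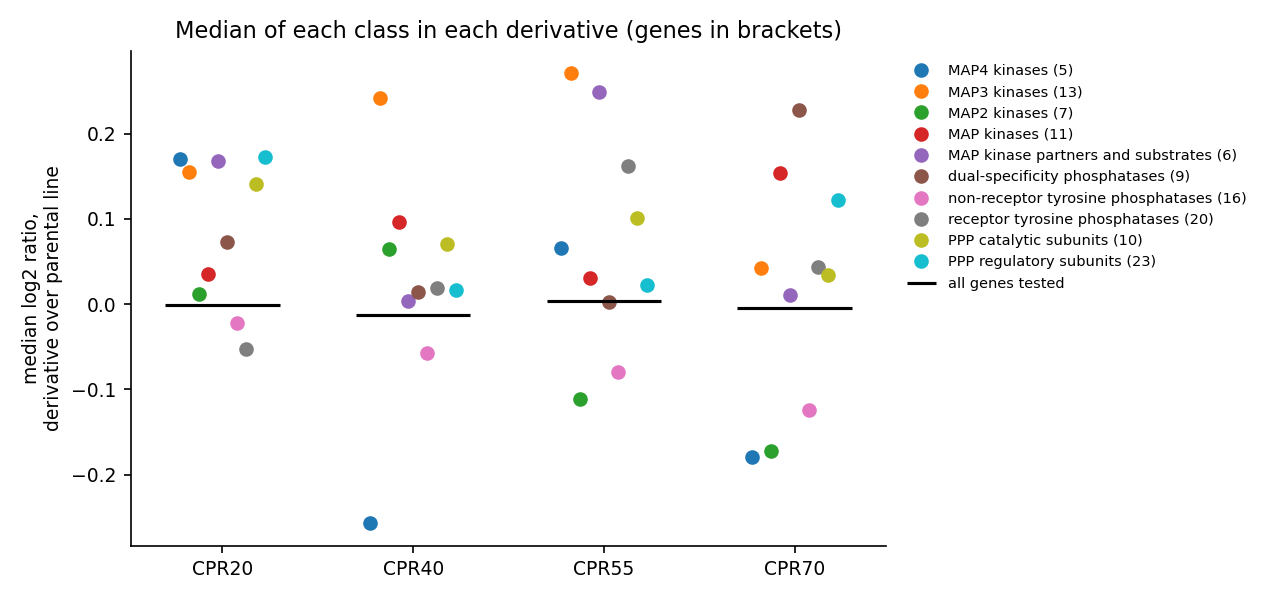
Median log2 ratio of derivative over parental line (y axis) of each member class in each derivative (x axis), with black bars for all genes tested. Class medians range from -0.26 (MAP4 kinases in CPR40) to 0.27 (MAP3 kinases in CPR55).

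Of the pathway's other genes, 13 of 17 listed RAS and RAF input genes were measured, of which 2 rose and 2 fell. This is 30.8% called, beside 11.7% of all genes tested and 21% of those above background in a channel on at least 4 arrays. SOS1, an exchange factor that loads RAS with GTP, fell by 0.73 and IQGAP1, a scaffold that binds RAF, MEK and ERK, rose by 0.73 with its parental channel dim and the rise at least 1.37-fold (limma adjusted p = 0.0134 and 0.0123, n = 8). SOS1 lay above 0 on CPR55 replicate 1, at 0.12. Of 23 measured MAP kinase substrates and immediate-early genes 2 rose and none fell, 8.7% called beside 11.7% of all genes tested. EGR1, an early response gene, had 1.52, with the parental channel dim and a rise of at least 1.56-fold, and JUNB, a subunit of AP-1, 1.41 (limma adjusted p = 0.0072 and 0.0139, n = 8), with CPR55 replicate 1 of JUNB at 0.03. Of 5 measured genes on the list of ERK feedback inhibitors outside the dual-specificity class, which also counts the galectin LGALS1, none was called. SPRY4 was dim in both channels, and ERRFI1, an inhibitor of the EGF receptor, had -0.32 (limma adjusted p = 0.160, n = 8).

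Of 12 measured partners of protein phosphatase 2A and calcineurin, 1 rose and 2 fell, 25% called beside 11.7% of all genes tested. NFATC4, a transcription factor that calcineurin activates, fell on all 8 arrays by a mean of 1.17 (limma adjusted p = 0.0005). RCAN1, an inhibitor of calcineurin, had a mean of -1.27 (limma adjusted p = 0.0255, n = 8), with CPR55 replicate 1 at 0.45. Of 26 measured genes on the list of protein phosphatases outside the name rule, which also counts the phosphatase-related DNAJC6 and TNS1, 1 rose and 5 fell. This is 23.1% called, beside 11.7% of all genes tested and 21% of those above background in a channel on at least 4 arrays. PPM1D, the p53-induced phosphatase WIP1, fell by a mean of 1.40 and PTP4A2, a tyrosine phosphatase, by 0.82, on all 8 arrays each (limma adjusted p = 0.0010 and 0.0029). The median log2 ratio was 0.13 for the RAS and RAF input genes, 0.13 for the substrates, -0.22 for the feedback inhibitor list with LGALS1, -0.07 for the partners and -0.09 for the phosphatase list with DNAJC6 and TNS1, against 0.00 for all genes.

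Per array, 26.4% to 60.3% of clone spots lay above background in the derivative channel and 20.3% to 41.9% in the parental channel. Spots not found made up 0.671% to 15.1% of all spots. Fibroblast markers were lower in the derivatives, 4 of 6 called beside 11.7% of all genes tested. Their summed intensity on an array was 1023 to 9580 in Cy5 and 1494 to 40959 in Cy3. DCN was dim in both channels. Their part in the member results was not tested. No leukocyte marker of 5, PTPRC among them, was above background on 4 or more arrays in either channel, and of 6 epithelial markers only KRT18 was. Of 3 endothelial markers, VWF was above background in both channels on all 8 arrays and was not called. CDH5 and PECAM1 were dim in both channels. Across the 122 member clones with values on all arrays, the arrays of a derivative correlated at 0.15 to 0.58. Between different derivatives, replicate 2 arrays correlated at 0.46 to 0.80 and replicate 1 arrays at 0.25 to 0.63. Arrays that differed in both derivative and replicate number correlated at 0.04 to 0.53.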

How the data were processed

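RNA of 4 resistant derivatives was measured against parental RNA on 8 two-colour cDNA arrays. Per the file headers, the deposited table holds the linear intensity of each spot in Cy5 and in Cy3, with no background column, and a calibrated ratio. The deposited ratio equals red over green times 1 constant per array (0.553 to 1.65, recomputed). Per the file headers the table also gives a spot area (another measure, with no unit stated), which was 0 for spots not found. The deposited value table is log2 of that calibrated ratio. The software and settings behind these files are not given in the sources used here. 8 value columns belong to arrays outside the described samples and were not used.

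An offset of 50 was added to both intensities, spots not found were set to missing, log2 ratios were normalised by loess (span 0.3) within arrays, and spots of a clone were averaged. Clones with a value in each derivative (13186, with 154 left out) were fitted with limma 3.58.1 in R 4.3.3, with 1 mean per derivative. All p-values were adjusted by Benjamini-Hochberg over these clones. The fit was tested on simulated data. The simulated arrays varied independently of one another, so that test did not cover deviations that same-numbered arrays share. A channel counted as above background at 2.6 median absolute deviations over the median of the empty spots. Bounds on a fold raised a dim channel to the lowest normalised value of any clone above background on that array. That value can lie under the empty-spot level after normalisation, so every "at least" fold holds for this floor only. The number of arrays limits the precision.

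Same-numbered arrays deviated from their derivative means together (correlations of 0.258 to 0.369 in all 6 pairs of derivatives). The main fit left the replicate number out and treated the arrays as independent, so its p-values do not account for this pairing. A fit with the replicate number as a block was an alternative, and its result is given where it changes a call. Genes named are members above background on at least 4 arrays that passed with 1 sign on every array, the extremes of each derivative, the 2 smallest p of each class and a set list of well-known kinases and phosphatases. Others are marked where named. The values of 1 gene picked by these rules are not reported here. The members, lists and named genes were chosen with earlier results of these data known. Of the member names, 114 were current symbols and 6 older ones with 1 match in the RefSeq table, and PPP1R6 kept its listed name. Alternatives changed the offset, background correction, normalisation, filter, clone choice, values used, replicate term and arrays included.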

Additional observations from a re-analysis of the deposited data

How the results depend on the processing

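All 15 called members kept their direction in every alternative, of which there were up to 19, and MAP3K14, MAP2K3 and PTPN13 passed in all of them. The numbers of members higher and lower (11 and 4 as reported) became 6 and 1 with median centring within arrays (5.83% of members against 5.50% of all clones called) and 3 and 1 with the deposited value table (3.31% against 2.35%). They were 7 and 3 in the replicate 1 arrays alone (8.26% against 7.68%) and 14 and 8 in the replicate 2 arrays alone (18.5% against 16.3%). The replicate block gave 17 and 8, keeping all 15 (20.8% against 19.3%). The filter on dim clones gave 12 and 7 (27.1% against 31.1%). With the mean of all clones of a gene, 16 members passed (13.3% against 11.5% of all genes and unnamed clones). This kept 14 of the 15 calls and lost PTPRJ. The cause of these shifts was not tested. In the calls for CPR20, CPR40, CPR55 and CPR70 (1, 2, 1 and 5 as reported), the replicate block gave 1, 3, 2 and 7, median centring 0, 0, 0 and 2, no offset 0, 1, 1 and 3, normexp 0, 0, 0 and 3, scale normalisation 1, 1, 1 and 4, the filter on dim clones 1, 3, 2 and 5, and the values as deposited 0 in each. Leaving out 1 array at a time gave 7 to 11 members higher and 1 to 4 lower, and 0 in CPR20, 0 to 1 in CPR40, 0 to 1 in CPR55 and 0 to 4 in CPR70. Without CPR20 replicate 2, 8 members passed, and without CPR70 replicate 2, 0 passed in CPR70. No alternative called a difference among the derivatives or in CPR70 minus CPR20. Across the named members and alternatives, 639 comparisons kept their side of the threshold, 66 lost the call and 25 gained it. The parental channel was dim on all arrays for 5 of the 15 calls. Of these PPP2R5A had a bound of 1.66-fold in the mean and PTPRJ one of only 1.00-fold, while MAPK8IP3, PPP2R2C and PTPN3 had none above 1. Of the 11 members called higher, 7 had a parental channel above background on at most 1 array.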
